A study of Rattus norvegicus with 24 samples.

Results

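The comparison described here asked what the compound PAIR1 had changed after 4 h in rat INS1 cells made to express IRE1α. It rests on 6 of the 24 libraries of the series, 3 from cells given doxycycline and PAIR1 and 3 from cells given doxycycline and the compound's vehicle, chosen by treatment and time in the sample titles. INS1 comes from a rat insulinoma and stands in for beta cells of the pancreas, and all groups carry a transgene for mouse IRE1α (Ern1) that doxycycline switches on. The other groups at 4 h were uninduced cells with vehicle only (3 libraries) and induced cells with KIRA9 (3 libraries), and the same 4 treatments were sampled at 24 h. No group was given a compound without doxycycline, the doses are not stated in the labels, and nothing says whether the line is 1 clone or whether replicates were separate cultures, so the p-values cover only the spread between libraries, part of which may be technical.

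IRE1α is a sensor of unfolded protein in the membrane of the endoplasmic reticulum. When its kinase domain is active and the protein clusters, its RNase domain cuts the mRNA of the transcription factor XBP1, which is then joined into the spliced form, and, at stronger activation, cuts other mRNAs at the endoplasmic reticulum, a process called regulated IRE1-dependent decay. Beta cells, which make large amounts of proinsulin, depend on this pathway and can die when it is driven too far. Both compounds bind the ATP site of the kinase. The series' title describes PAIRs as partial antagonists that separate outputs of the RNase, and KIRA compounds are known as inhibitors of the kinase that attenuate the RNase.

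Transcripts are given by Ensembl gene ID, since the files hold no gene names and the RefSeq gene table used matched 0 of 26689. The transgene, the XBP1 targets, the insulin genes and markers of other cell types were therefore not analysed here, and neither the induction nor the beta cell label was checked by its genes. For the induced vehicle libraries the labels disagree, since a time characteristic goes against the title, description and column name. The titles were followed. Under the other reading, PAIR1 at 4 h would differ from vehicle in 8733 IDs.

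Library totals were 15.3, 15.2 and 19.0 M counts for PAIR1 and 20.7, 14.9 and 17.0 M for vehicle, and an ID without a count could be present at up to 3 counts, or 0.145 to 0.201 CPM (counts per 1 M counts). Replicates of these groups differed by more than sampling noise, with a chi-square of 3.67 to 13.9 per degree of freedom over 6 pairs. A set of 41 IDs was higher in each of 6 libraries of the series than in any of the other 18, and the vehicle group holds 1 of the 6, replicate 3. These IDs took 0.667 to 0.744% of counts in the 6 libraries and 0.0705 to 0.0853% elsewhere, and 0 of the 41 were called for PAIR1 at 4 h in edgeR's test (9 had an unadjusted p below 0.05), beside 440 called and 1805 at an unadjusted p below 0.05 among all 13760 IDs tested.

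A small part of the IDs tested was called as changed by PAIR1 at 4 h, and more of the calls were rises than falls. Of 13760 IDs tested, 318 rose and 122 fell with PAIR1 against vehicle at an adjusted p below 0.05 in edgeR's quasi-likelihood test. The called IDs were 3.2% of those tested, 2.31% raised and 0.887% lowered, and 72.3% of the calls were rises. DESeq2 called 476 IDs, of which 408 were also called by edgeR. In 437 of the 440 called IDs all 3 PAIR1 libraries lay on 1 side of all 3 vehicle libraries, which was the case in 19% of all IDs tested. The calls were made on the same libraries, so the 437 describe the called IDs and are no further support for them.

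The changes were shallow. The median rise was 0.28 on the log2 scale (quartiles 0.19 and 0.41) and the median fall was -0.21 (quartiles -0.29 and -0.16). At least 1.5-fold changes were found in 37 raised and 11 lowered IDs, and at least 2-fold changes in 12 raised and 1 lowered ID. The 12 were at 0.483 to 512 CPM with PAIR1, and 2 of them were under 1 CPM there. The 1 lowered ID went from 6.02 to 1.73 CPM with a spread of over 8-fold inside a group. Another 200 IDs had a fitted change of at least 2-fold that was not called. The values are shares of a library, so a change in the RNA content of the cells as a whole cannot be told apart from none.

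**Figure D1:**
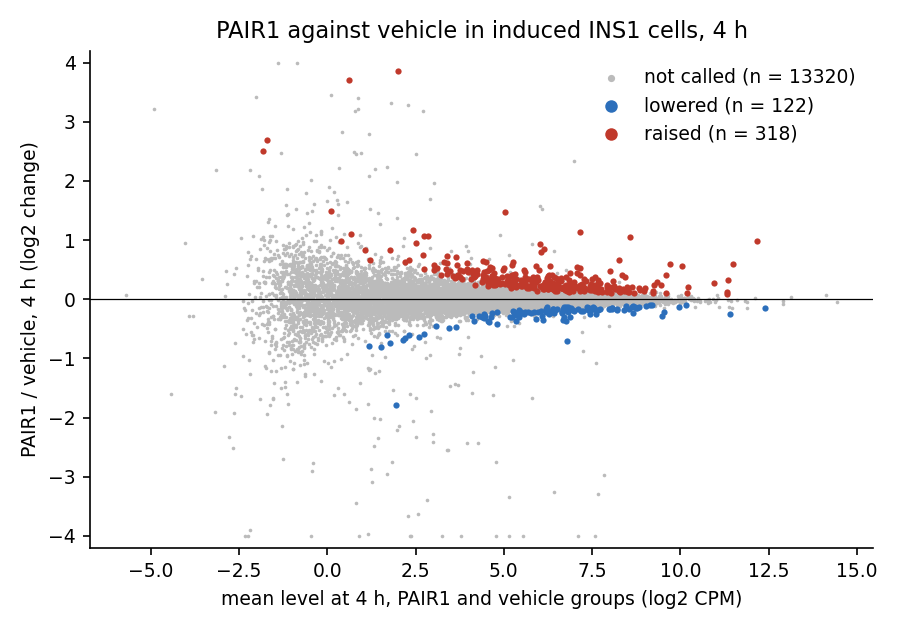
Log2 change of each of 13760 IDs with PAIR1 against vehicle at 4 h, by its mean level in both groups in log2 CPM. Red points are the 318 IDs called higher, blue points the 122 called lower and grey points the rest, and 15 IDs beyond a log2 change of 4 are drawn at the edge of the axis; most called IDs lie close to 0.

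The number of calls followed the number of reads behind an ID, which was divided into 4 classes of 3440 IDs by CPM. In the class with the fewest reads, up to 6.12 CPM, 14 rose and 9 fell, or 0.669%. In the class with the most, from 70.2 CPM, 161 rose and 74 fell, or 6.83%. The median SE of the log2 change was 0.30 in the lowest class and 0.042 in the highest, and the median called rise was 1.04 in the lowest and 0.20 in the highest. A small change in a low ID was therefore not detectable at this depth. Rises outnumbered falls in each of the 4 classes.

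**Figure D2:**
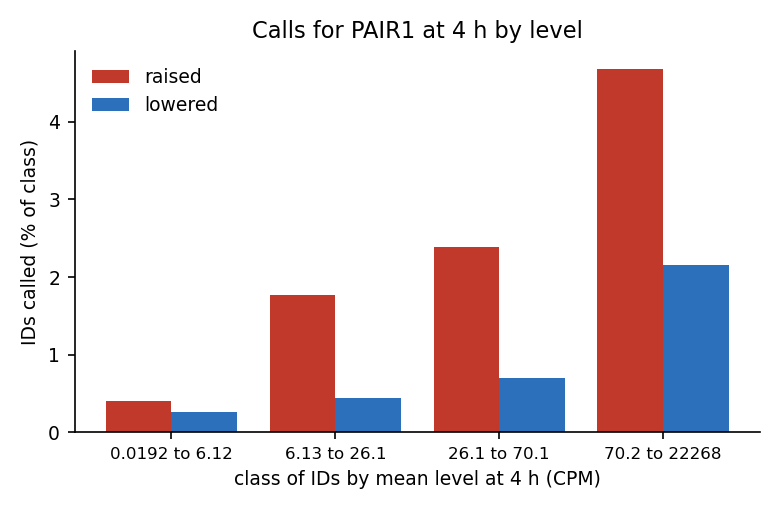
Share of IDs called higher (red) and lower (blue) with PAIR1 at 4 h, in percent, for 4 classes of 3440 IDs each by mean CPM, which is not corrected for transcript length. The share called rises from 0.669% in the lowest class to 6.83% in the highest.

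The raised ID with the most reads showed the clearest change of all raised IDs, and ranked 12 by CPM among all IDs in vehicle cells. It stood at 6105, 5996 and 6092 CPM in the PAIR1 libraries and at 3057, 3076 and 3024 CPM in the vehicle libraries. The groups lay far apart, with a log2 change of 0.99 ± 0.02 (SE, n = 3 and 3; edgeR adjusted p = 2e-18). Uninduced cells at 4 h, at 3091 ± 92 CPM (SD, n = 3), were close to induced vehicle cells, at 3052 ± 26 CPM, and the log2 change with induction was -0.02 ± 0.02 (adjusted p = 0.97). With KIRA9 it reached 9593 ± 140 CPM, so that PAIR1 was 0.66 lower on the log2 scale than KIRA9 (-0.66 ± 0.02, adjusted p = 9.3e-15).

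ENSRNOG00000015157, printed by the fixed rule, rose from low levels. Its level was 6.43, 8.89 and 6.90 CPM with PAIR1, from 97, 134 and 129 counts, and 3.14, 3.23 and 3.47 CPM with vehicle, from 64, 48 and 58 counts. Every PAIR1 library was above every vehicle library, and the log2 change was 1.17 ± 0.16 (SE, edgeR adjusted p = 9.2e-05). Uninduced cells were lower still, at 1.98 ± 0.27 CPM (SD, n = 3), and KIRA9 cells higher, at 10.9 ± 0.45 CPM. The log2 change of induced vehicle against uninduced cells, 0.73 ± 0.18 (SE, edgeR adjusted p = 0.095), was not called. The difference between PAIR1 and KIRA9, -0.56 with a 95% interval of -0.88 to -0.24, had an adjusted p of 0.062 and was not called.

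ENSRNOG00000047573 had the largest called rise that the rule allowed, and a pattern of another kind. It stood at 7.29, 12.9 and 2.25 CPM with PAIR1 and at 0.344, 0.808 and 0.418 CPM with vehicle, where it had 7, 12 and 7 counts. The groups did not overlap, although the PAIR1 libraries differed widely among themselves, and the log2 change was 3.85 ± 0.58 (SE, adjusted p = 0.00024 in edgeR's test). The low group was the vehicle one: uninduced cells at 4 h were at 9.11 ± 2.0 CPM (SD, n = 3), KIRA9 cells at 6.62 ± 2.7 CPM and induced vehicle cells at 24 h at 10.1 ± 2.5 CPM. Against uninduced cells PAIR1 differed by -0.29 with a 95% interval of -1.16 to 0.57 (adjusted p = 0.84), which was not called.

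Of the lowered IDs, ENSRNOG00000013520 had the smallest p-value. Its level was 81.8, 89.1 and 81.9 CPM in PAIR1 and 131, 138 and 143 CPM in vehicle libraries. The groups did not overlap, with a log2 change of -0.71 ± 0.05 (SE, edgeR adjusted p = 1.5e-09). Uninduced cells, at 139.6 ± 1.4 CPM (SD, n = 3), stood with the vehicle cells, and KIRA9 cells, at 79.2 ± 4.7 CPM, stood with the PAIR1 cells. The difference between the compounds was 0.09 with a 95% interval of -0.01 to 0.19 (adjusted p = 0.50), which was not called.

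ENSRNOG00000007607 fell just past the threshold. It was at 2.59, 3.32 and 4.12 CPM with PAIR1 and at 5.30, 6.40 and 4.60 CPM with vehicle, a log2 change of -0.69 ± 0.19 (SE, adjusted p = 0.049 in edgeR's test). The call was lost when replicate 1 or 2 of either group was left out, with adjusted p up to 0.23. The lowered ID with the most reads, which ranked 6 by CPM in vehicle cells, was at 5108, 5086 and 5139 CPM with PAIR1 and 5709, 5553 and 5637 CPM with vehicle. Its fall was small, a log2 change of -0.14 ± 0.03 (adjusted p = 0.015), and its adjusted p rose to 0.051 to 0.069 without PAIR1 replicate 1 or 2 or vehicle replicate 1 or 3.

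**Figure D3:**
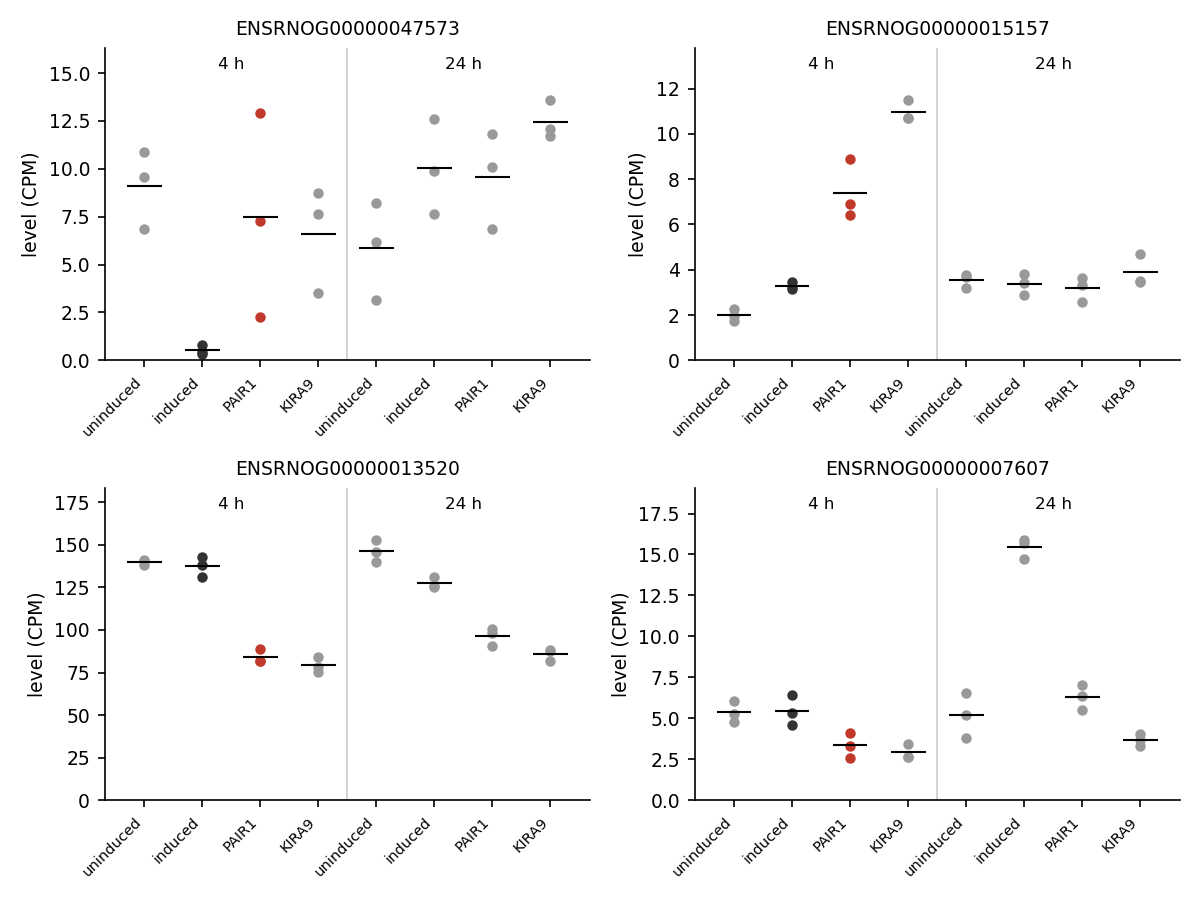
Level in CPM of the 4 IDs printed by the fixed rule in every library, by treatment at 4 h and 24 h; points are libraries, lines are means of 3, red marks PAIR1 and black vehicle at 4 h. ENSRNOG00000047573 is low in induced vehicle cells at 4 h, and ENSRNOG00000013520 stands at 84.3 CPM with PAIR1 against 137 CPM with vehicle.

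Set beside uninduced cells, the raised IDs were on median above and the lowered IDs below the level of both groups without a compound. These comparisons share libraries with PAIR1 against vehicle, so their values are given side by side only. Over the 318 raised IDs the median log2 change was 0.28 for PAIR1 against vehicle, 0.20 for PAIR1 against uninduced cells and -0.06 for vehicle-treated induced cells against uninduced cells. Over the 122 lowered IDs these medians were -0.21, -0.19 and 0.02, and over all 13760 IDs each rounded to 0. Tested over all IDs on its own in edgeR, induction changed 0.298% of IDs at 4 h, with 5 raised (0.0363%) and 36 lowered (0.262%). PAIR1 against uninduced cells changed 2.55%, with 215 raised (1.56%) and 136 lowered (0.988%).

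The raised IDs together took 6.10 ± 0.031% of counts (SD, n = 3) with PAIR1, 4.88 ± 0.020% with vehicle and 5.09 ± 0.020% in uninduced cells at 4 h. The lowered IDs took 2.46 ± 0.017%, 2.78 ± 0.021% and 2.69 ± 0.030%. Because these sets were chosen on the PAIR1 and vehicle libraries, the shares describe how much RNA is concerned and carry no test. The share in KIRA9 cells at 4 h, whose libraries chose nothing, was 7.22 ± 0.035% for raised and 2.22 ± 0.012% for lowered IDs.

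KIRA9 against uninduced cells at 4 h is a comparison of the other compound with no library in common, though it also holds the effect of induction. It was fitted in the same model as PAIR1 against vehicle, with a shared estimate of the spread. It changed 10.9% of all IDs. KIRA9 raised 205 of the 318 IDs that PAIR1 raised and lowered none of them, in edgeR's test. That is 64.5% of the PAIR1 list and 27.4% of the 749 IDs that KIRA9 raised, beside 5.44% of all IDs tested. Of the 122 lowered by PAIR1, KIRA9 lowered 91, or 74.6%, beside 5.49% of all IDs, and raised 1. The 91 were 12% of the 756 IDs that KIRA9 lowered. In the class with the most reads, the shares were 71.4% of 161 raised and 90.5% of 74 lowered IDs, beside 7.67% and 12.8% of all IDs in that class.

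Tested directly, PAIR1 and KIRA9 cells differed at 4 h in 2.06% of IDs, 113 higher (0.821%) and 170 lower (1.24%) with PAIR1. The differences on the lower side were deeper, with a median of -0.35 and at least 2-fold in 8 IDs, against a median of 0.19 and 0 IDs at least 2-fold on the higher side. Over the 318 raised IDs the median difference between PAIR1 and KIRA9 was -0.08, and over the 122 lowered IDs 0.08. These medians rest on the PAIR1 libraries that also chose the IDs, so they are a description and carry no test. All the differences given here compare the treatments as applied, since the doses are not given.

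The libraries at 24 h, none of which entered the comparison at 4 h, were used to follow the same IDs. The 3 comparisons at 24 h share the induced vehicle libraries with each other. PAIR1 against vehicle at 24 h changed 54.9% of all IDs. It raised 215 of the 318 IDs raised at 4 h, or 67.6%, and lowered 40, beside 30% of all IDs raised and 24.9% lowered in edgeR's test. It lowered 73 of the 122 IDs lowered at 4 h, or 59.8%, and raised 24. Those shared IDs were 5.2% of all IDs raised and 2.13% of all lowered at 24 h. The median log2 change at 24 h was 0.46 over the raised and -0.19 over the lowered set, against 0 over all IDs. In the class with the most reads, PAIR1 at 24 h raised 74.5% of 161 raised IDs and lowered 55.4% of 74 lowered IDs. Of all IDs in that class it raised 45.1% and lowered 31%. KIRA9 against the same vehicle libraries at 24 h changed 62.9% of all IDs, 32.3% raised and 30.6% lowered. It raised 234 of the 318 IDs, or 73.6%, and lowered 79 of the 122, or 64.8%.

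The described IDs differed in what remained at 24 h. The raised ID with the most reads was at 3298, 3365 and 3361 CPM with PAIR1 at 24 h, against 3099 CPM on average with vehicle, a log2 change of 0.11 ± 0.02 (edgeR adjusted p = 0.00026). Uninduced cells at 24 h were at 1948 CPM on average. Induction had itself raised this ID at 24 h, by 0.67 ± 0.02 (edgeR adjusted p = 2.4e-17). ENSRNOG00000013520 was at 98.2, 100.3 and 90.5 CPM with PAIR1 at 24 h and at 126, 131 and 125 CPM with vehicle, again with no overlap (log2 change -0.40 ± 0.05, edgeR adjusted p = 2.2e-07). ENSRNOG00000007607 was at 6.34, 5.52 and 7.03 CPM with PAIR1 at 24 h and at 15.7, 15.9 and 14.7 CPM with vehicle (-1.29 ± 0.18, edgeR adjusted p = 1.7e-06), and its vehicle level had been 5.43 CPM at 4 h. The change of ENSRNOG00000015157 at 24 h, -0.09 ± 0.17 (edgeR adjusted p = 0.70), and that of ENSRNOG00000047573, -0.06 ± 0.41 (adjusted p = 0.91), were not called. Tested over all IDs, the effect of PAIR1 differed between the times in 41.9% of them, 24.9% more positive and 17% more negative at 24 h.

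Induction itself, read at 24 h from induced vehicle against uninduced cells, had lowered most of the IDs that PAIR1 raised at 4 h. In edgeR's test it changed 61.8% of all IDs. It lowered 197 of the 318, or 61.9%, and raised 77, or 24.2%, beside 32% of all IDs lowered and 29.8% raised. The median log2 change with induction at 24 h was -0.52 (quartiles -1.54 and 0.14) over the 318, against 0 over all IDs. Within the class with the most reads, 65.2% of 161 raised IDs were lowered by induction at 24 h, beside 45.4% of all IDs in it. Of the 122 IDs that PAIR1 lowered at 4 h, induction raised 59 at 24 h, or 48.4%, beside 29.8% of all IDs. It lowered 41 of them, or 33.6%, near the 32% of all IDs. In the class with the most reads it raised 45.9% and lowered 39.2% of 74 IDs, beside 35.3% and 45.4% of all in it. In the class with the fewest reads, with 14 raised IDs, 3 were lowered by induction (21.4%) and 5 raised (35.7%), beside 15.1% and 18.7% of all IDs in that class.

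Read from the other side, PAIR1 at 4 h raised 4.48% and lowered 0.932% of the 4401 IDs that induction lowered at 24 h. Of the 4102 IDs that induction raised at 24 h it raised 1.88% and lowered 1.44%. Of all IDs tested it raised 2.31% and lowered 0.887%, so the 0.932% and the 1.88% are near the shares over all IDs. The median 4 h change was 0.014 and -0.011 on the log2 scale over the lowered and the raised IDs, respectively.

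**Figure D4:**
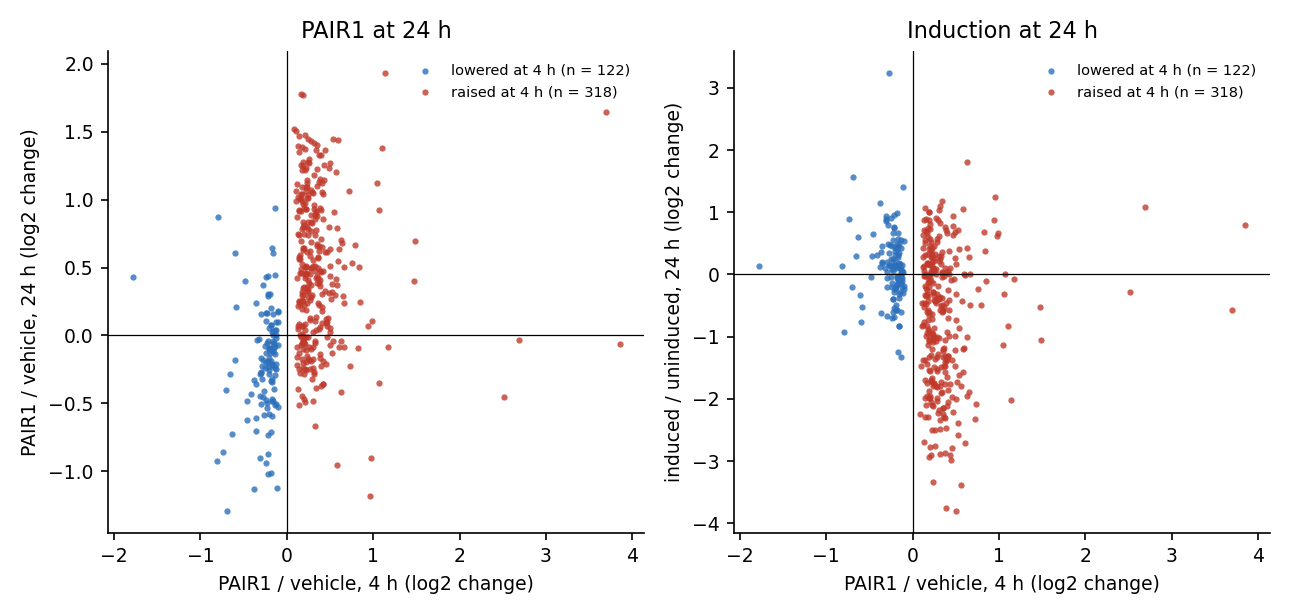
Log2 change at 24 h of the 318 IDs raised (red) and 122 lowered (blue) with PAIR1 at 4 h, against their log2 change at 4 h; the left panel shows PAIR1 against vehicle at 24 h and the right panel induced vehicle against uninduced cells at 24 h. The red points lie mostly above 0 on the left (215 called higher) and mostly below 0 on the right (197 called lower).

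The median deviation of either set differed little between the replicates of a group. A median over so many IDs does not show how much single IDs varied. The median deviation of the raised IDs from their mean over the series was 0.26, 0.27 and 0.28 on the log2 scale in the PAIR1 libraries at 4 h and -0.05, -0.03 and -0.03 in the vehicle libraries. At 24 h it was -0.60, -0.64 and -0.60 in induced vehicle cells, -0.09, -0.07 and -0.09 with PAIR1, 0.13, 0.13 and 0.12 with KIRA9, and -0.03, -0.02 and -0.04 in uninduced cells. By this measure the raised set at 24 h was lower with PAIR1 than in uninduced cells and higher than in induced vehicle cells. By its share of counts it was above both, at 4.77 ± 0.020% (SD, n = 3) with PAIR1, 4.56 ± 0.015% in uninduced and 3.52 ± 0.015% in induced vehicle cells at 24 h. That share weights each ID by its reads. It includes the raised ID with the most reads, at 3342 CPM with PAIR1 and 1948 CPM in uninduced cells at 24 h. The share can therefore differ from the median of the set. The lowered set at 24 h deviated by 0.01 to 0.02 with PAIR1, below both uninduced cells (0.09 to 0.14) and induced vehicle cells (0.23 to 0.26), and by -0.05 to -0.03 with KIRA9.

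**Figure D5:**
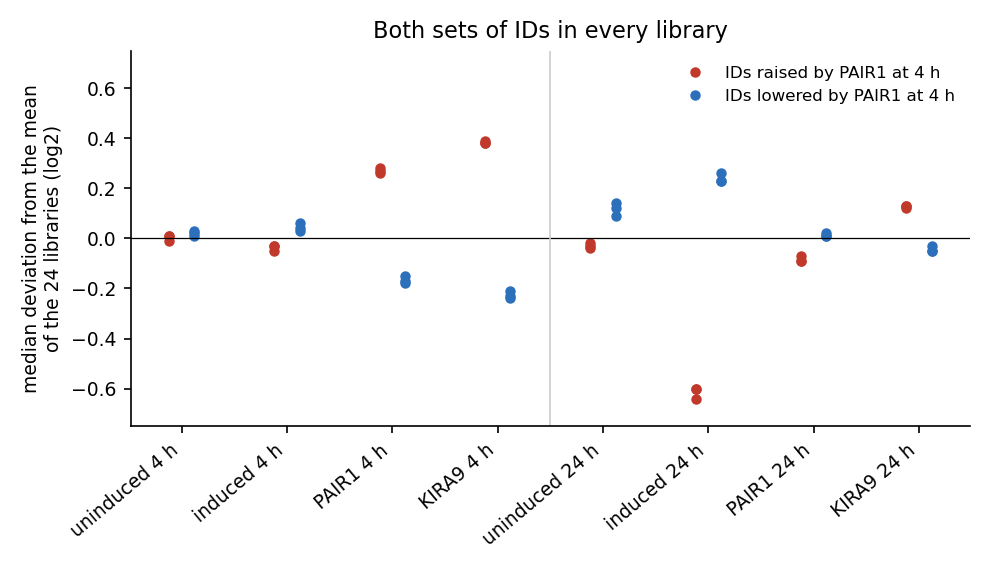
Median deviation (log2) of the IDs raised (red) and lowered (blue) with PAIR1 at 4 h from their mean over the 24 libraries, for each library by treatment and time. The sets were chosen on the PAIR1 and induced vehicle libraries at 4 h; in the other groups the raised set is lowest in induced vehicle cells at 24 h, at -0.64 to -0.60.

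Fewer IDs were called at 4 h when libraries were left out. Whether the number of libraries or the particular libraries mattered was not tested. Without the 6 libraries that share the high set of 41 IDs, 201 IDs rose and 45 fell, and 234 of these 246 were among the 440. Without any 1 of the 6 compared libraries, 244 to 303 IDs were called, and the falls were 60 to 81. Leaving out PAIR1 replicate 2 gave 269 calls and replicate 3 gave 244, and leaving out vehicle replicate 2 gave 290 and replicate 3 gave 292. The share of raised IDs that induction lowered at 24 h was 60.3 to 63.6% without any 1 library, beside 30 to 31.7% of all IDs.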

How the data were processed

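Raw read counts per Ensembl gene ID, with no normalization, were deposited for 24 libraries of INS1 cells. HISAT2 and HTSeq are named without version, per the submitters' processing notes, and libraries came from poly(A) RNA with NEBNext Ultra II reagents, per the labels' protocols. Build, annotation and strandedness are not given in the sources used here. Reads of genes that overlap, lie antisense or are nearly identical may therefore be mixed. Of 26689 IDs, 6523 had no count in any library and 0 matched the gene table used for names (RefSeq, assembly GRCr8), so 29 gene lists, the marker lists and the promoter motifs could not be applied and no sequence is shown.

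Groups and times were taken from the sample titles. With edgeR 4.0.16 in R 4.3.3, filterByExpr (minimum count 10, 8 groups) kept 13760 IDs with 99.9% of the counts. After TMM scaling, all 24 libraries entered 1 quasi-likelihood model of group means, without a replicate block. Benjamini-Hochberg adjustment ran over all 13760 IDs, and calls needed an adjusted p under 0.05. Each adjusted p, standard error (SE, the log2 change over the square root of F) and interval printed was taken from that test unless DESeq2 1.42.0, an alternative, is named. Levels are TMM-scaled CPM with SD over 3 libraries. The limits set by 3 counts cover counting error only.

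At most 2 IDs per direction are printed: those with the largest called change, 5 CPM or more on average in the higher group, no overlap between the libraries and at most an 8-fold spread inside a group. The condition on symbols could not be applied. Another pair, the called IDs with the most reads in each direction, was chosen after the values were seen and is described without an ID. The comparison, the lists and the tests were chosen with earlier results of these data known. Comparisons of KIRA9 with uninduced cells at 4 h and of induction at 24 h were added because they share no library with PAIR1 against vehicle at 4 h.

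The procedure was tested on simulated data. Other scalings, filters, fits, thresholds, time labels and left-out libraries were tried.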

Additional observations from a re-analysis of the deposited data

Results flagged for a closer look

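The effect of PAIR1 on induced cells differed between 24 h and 4 h by a test of the difference itself in 5771 IDs, which is 41.9% of those tested: at 24 h it lay higher in 3428 and lower in 2343. Among the 318 IDs raised at 4 h, the effect at 24 h lay higher in 134 and lower in 97. Among the 122 IDs lowered at 4 h, it lay higher in 38 and lower in 28. Those counts rest on the libraries that chose the IDs and are a description. The printed IDs were picked for a large change at 4 h in libraries that also enter this difference, which favours a smaller effect at 24 h, so their values are a description too and are given without p-values. ENSRNOG00000047573 differed by -3.91 ± 0.72 on the log2 scale (SE), with an effect of -0.06 at 24 h against 3.85 at 4 h. ENSRNOG00000015157 differed by -1.26 ± 0.24, with an effect of -0.09 at 24 h. ENSRNOG00000013520 differed by 0.30 ± 0.07, with an effect of -0.40 at 24 h against -0.71 at 4 h. ENSRNOG00000007607 had a larger fall at 24 h, with an effect of -1.29 against -0.69 at 4 h. Its difference of -0.60 ± 0.26 was not called.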

How the results depend on the processing

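At an adjusted p below 0.01, 208 IDs were called for PAIR1 against vehicle at 4 h (164 raised, 44 lowered), 27 for induction, 151 for PAIR1 against uninduced cells, 167 for PAIR1 against KIRA9 and 805 for KIRA9 against uninduced cells. With only the compared libraries fitted, the counts were 280 for PAIR1 against vehicle (65 lowered), 198 against uninduced cells and 27 for induction. In those fits 74.9% of raised IDs rose again at 24 h, beside 29.4% of all IDs. Induction at 24 h lowered 67.4% of the raised IDs, beside 29.4% of all IDs. DESeq2 called 70 IDs for induction at 4 h. Without the 6 libraries that stand apart, 246 were called for PAIR1 against vehicle (201 raised, 45 lowered), 161 against uninduced cells and 944 for KIRA9 against uninduced cells, and 61.2% of raised IDs rose again at 24 h, and the induced vehicle group at 24 h then holds 1 library, assumed to vary like the other groups.

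When the conflicting characteristic set the times of induced vehicle cells, 8733 IDs were called for PAIR1 against vehicle at 4 h (4494 raised, 4239 lowered), 4646 at 24 h, and 8700 and 3787 for induction at 4 h and 24 h. At 24 h, 8.26% of raised IDs were then called raised (16.5% of all IDs) and 4.15% of lowered IDs called lowered (17.3% of all). Induction lowered 15.2% of raised IDs at 24 h, beside 13.7% of all IDs. For KIRA9 the same direction was called in 8.43% of raised and 8.82% of lowered IDs, beside 5.44% and 5.49% of all IDs. The change of ENSRNOG00000047573 turned to -0.44 (adjusted p = 0.37). The cause of these moves was not tested.

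Leaving out 1 library gave 244 to 303 calls for PAIR1 against vehicle at 4 h (181 to 224 raised, 60 to 81 lowered). PAIR1 gave 196 to 231 calls against uninduced cells and 187 to 227 against KIRA9 (187 without PAIR1 replicate 1). KIRA9 then raised 56.5 to 70.1% of raised IDs, beside 3.86 to 5.34% of all IDs. It lowered 67.5 to 82.5% of lowered IDs, beside 3.62 to 5.32% of all IDs. ENSRNOG00000007607 lost its call in 5 other settings too, with adjusted p of 0.059 without a filter on low counts, 0.06 with the block, 0.15 with the compared libraries alone and 0.059 without the 6 libraries, and at the stricter threshold.

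Same-numbered PAIR1 and vehicle libraries deviated together only weakly, with r of 0.105, 0.099 and 0.070. Each lay above those with other numbers, a hint from the data and not the design. The deviations are from the mean of each group's libraries, so these r values are not independent of those with other numbers. With the replicate block 436 IDs were called for PAIR1 against vehicle at 4 h. Changes below about 0.3 on the log2 scale in IDs under 6.12 CPM were within 1 median SE. A call needed a change of several SE, and the called IDs of that class had a median rise of 1.04 and a median fall of -0.69. Changes well above 0.3 could therefore be missed there too.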
